A study of Mus musculus with 26 samples.

Results

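The 5′UTRs described here are those for which the deposited tables list a folding energy below -400 kcal/mol, taking the most negative isoform of each gene. The folding energy is the free energy of the most stable predicted secondary structure, and a more negative value stands for a more stable structure. Such an energy is listed for 412 of 8576 transcripts in the GS LRRK2 TG table, for the same 412 of 8576 in that of GS/DA LRRK2 TG and for 460 of 9561 in the LRRK2 KO table. Together these are 462 of 9602 transcripts with 458 gene symbols, called members here. Of them, 410 are in the transgenic and the LRRK2 KO tables, 2 (Foxj1 and a Gapdh transcript) in the transgenic tables only and 50 in the LRRK2 KO table only. Gapdh, which encodes a glycolytic enzyme, takes 4 members in the transgenic tables and 3 in the LRRK2 KO table, and the axon guidance receptor Robo2 takes 2. The members differ from each other in many ways, so they are listed by role, with all transcripts of the same table beside them.

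Ribosome footprints, the mRNA fragments that ribosomes protect, and total RNA (RNA-Seq) were sequenced from mouse striatum, dissected as caudate putamen. The mice were C57BL/6, 3 months old in the labels and 3 to 4 months in the methods, and each library came from a pool of 3 mice of both sexes. GS LRRK2 TG mice carry a G2019S LRRK2 transgene and GS/DA LRRK2 TG mice the kinase-dead G2019S/D1994A form, each from a single high-copy line. Both transgenes are under a Tet-off system that the CaMKII-tTA driver turns on, mainly in forebrain neurons, with doxycycline given to breeding cages and taken away after weaning. The transgenic tables set these mice against non-transgenic (non-TG) controls, and the labels list a single set of non-TG samples, 3 per assay, for both. The control means of the tables differ, so how far they share libraries is not known, and with controls that may be shared no overlap or correlation between them is given and their values stand side by side. The LRRK2 KO table sets LRRK2 knock-out mice against wild-type (WT) mice. In bulk tissue, fewer cells of a type and less RNA per cell cannot be told apart.

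During cap-dependent initiation, a small ribosomal subunit loads near the 5′ cap and scans the 5′UTR toward the start codon, helped by the eIF4F complex and RNA helicases that open base pairs. Long, stable 5′UTRs with upstream start codons are known for slowing this step, and they are common among mRNAs of growth regulators, transcription factors and kinases. LRRK2 is a kinase and GTPase whose G2019S form, with raised kinase activity, is a cause of familial Parkinson's disease.

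The tables hold a mean per group and assay, normalized by the authors with no SD. The labels list 3 non-TG libraries per assay, 3 footprinting libraries each of WT and LRRK2 KO, and 2 in the other striatal groups. Because read counts are whole numbers and libraries are scaled by different factors, a mean of 2 libraries can be split, and this gave the normalized reads of each library for 10 of the 12 columns, with 97.9% to 99.7% of transcripts resolved. After a shift of the means that should leave nothing to resolve, 7.25% and 5.98% still resolved in the 2 RNA-Seq columns behind the GS/DA comparison, and 0 in the others, so those RNA-Seq values are less certain. For non-TG mice, which of the 3 listed libraries stand behind a mean of 2 is not fully known, and the third footprinting libraries of WT and LRRK2 KO have no RNA-Seq library of the same number. In the GS LRRK2 TG table the control means could not be split, so that comparison has no spread between controls. The recovered libraries carry no replicate number and are called library 1 and library 2 within a group. Depth set what could be seen: the recovered footprinting libraries held 5829225 to 15954039 reads in coding sequences (CDS) in the transgenic tables and 2643671 to 5576128 in the LRRK2 KO table. The median member had 200.5 and 100 footprints in the WT libraries and 222 and 96 in the LRRK2 KO libraries, against 764 and 493.5 in the non-TG libraries behind the GS/DA LRRK2 TG comparison.

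Lrrk2 itself is not a member, with a listed energy of -21 kcal/mol (chr15:91503606-91646551, plus strand, mm9). Its normalized footprints were 400 and 690 in the WT libraries and 102 and 150 in the LRRK2 KO libraries, so the groups do not overlap. In the GS/DA LRRK2 TG table they were 1445 and 1224 in control and 7267 and 4766 in GS/DA LRRK2 TG, again without overlap. In GS LRRK2 TG they were 3320 and 7052 beside a control mean of 2524. Its RNA-Seq values there were 3550 and 214 beside a control mean of 2105, so library 2 was far below the control and the mean of 1882 was not above it. In GS/DA LRRK2 TG its RNA-Seq values were 5038 and 404, against 5233 and 560 in control. All 8 markers of striatal spiny neurons are listed in each table, Ppp1r1b with the most footprints (control means 32311, 42124 and 9040.0). From here on 3 values in a row are given for the GS, then the GS/DA, then the KO table. Cortical neuron markers are listed as well, 3 of 5 in the transgenic tables and 5 of 5 in the LRRK2 KO table. Summed control footprints were 101097, 135645 and 29397 for the striatal markers and 1612, 1343 and 2410 for the cortical ones. The only member among the cell type markers is Slc1a3, the glutamate transporter of astrocytes.

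Energies of the members run from -1664.78 kcal/mol in Fam69b to -400.48 in 2410002I01Rik, with a median of -528.5 in the transgenic tables. These energies, which the authors took from UCSC, were set against Ensembl transcripts of the same genome build. For each gene the coding isoform with the longest 5′UTR was taken. The part of the different transcript sets in the result was not tested. Of the 409 members matched in the transgenic tables, 112 (27.4%) have a 5′UTR that refolds below -400 kcal/mol, and so do 129 of 456 (28.3%) in the LRRK2 KO table. The median refolded energy was -176 kcal/mol in the transgenic tables, against -92.5 over all transcripts. The label "extremely structured" therefore holds for the deposited energy, and for most members not for the annotated 5′UTR, so the members are best called transcripts with a deposited energy below -400 kcal/mol. Lonp1, a mitochondrial protease, is an example: its deposited energy is -1188.54 kcal/mol and its annotated 5′UTR has 30 bases and refolds to -7.9. Plxna3, a semaphorin receptor, is the opposite, with -1257.47 deposited and -1461.1 refolded over 3731 bases.

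The annotated 5′UTRs of the members are long, with a median of 435 bases in the transgenic tables against 237 over all transcripts. Their GC content of 62.6% is near the 64.1% of all transcripts. At least 1 upstream ATG was present in 326 of 409 members (79.7%), against 60.8% of all transcripts, and the number per kb was 6.34 against 4.24. The CDS of the members is long as well, at a median of 2448 bases against 1476, and the median gene has 3 annotated isoforms against 2. The members thus differ from all transcripts in length of transcript, upstream ATGs and isoform number, more than in base composition of the 5′UTR. The rule takes a total energy, not one per base, of the most negative isoform. It therefore favours long 5′UTRs, with more room for upstream ATGs, and genes with more isoforms. How much of these differences follows from the rule was not tested.

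Of the matched members, 23 (5.62%) in the transgenic tables hold at least 4 CGG units in a row in the annotated 5′UTR, against 283 of 8438 matched transcripts (3.35%). In the LRRK2 KO table the share is 28 members (6.14%) against 306 of 9398 (3.26%). A pattern of 4 runs of at least 3 G with 1 to 7 bases between them, the letters that a G-quadruplex needs, is in 70 members (17.1%) against 9.24% in the transgenic tables and in 80 (17.5%) against 9.18% in the LRRK2 KO table. Both motifs were searched on the transcript strand only. These shares are not adjusted for the length of the 5′UTR, which is greater in the members. The windows of 30 bases are shown as examples of the letters counted, and they come from the members with the most WT footprints that hold each motif. Capitals mark the motif, and a match is a description of letters and not a tested structure. For the CGG repeat they are Gnas, the stimulatory G protein alpha subunit (7 units, chr2:174155594-174155623, plus strand, exon 2, 173 bases before the start codon), Srrm2, a spliceosome scaffold (5 units, chr17:23940225-23940254, plus strand, exon 1, 788 bases before it), Sez6, a neuronal membrane protein (5 units, chr11:77744433-77744462, plus strand, exon 1, 99 bases), Dlg3, a synaptic scaffold (6 units, chrX:97963338-97963367, plus strand, exon 1, 43 bases) and Zswim6 (8 units, chr13:108680161-108680190, minus strand, exon 1, 572 bases), all on mm9.
Gnas CGG repeat: agagCGGCGGCGGCGGCGGCGGCGGcagca
Srrm2 CGG repeat: gaggaggCGGCGGCGGCGGCGGctgaggcg
Sez6 CGG repeat: gcgctggCGGCGGCGGCGGCGGccccgctg
Dlg3 CGG repeat: ggagccCGGCGGCGGCGGCGGCGGcgtgga
Zswim6 CGG repeat: gggCGGCGGCGGCGGCGGCGGCGGCGGtgg

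The G-run pattern is shown for a further stretch of Gnas (chr2:174154830-174154859, plus strand, exon 2, 937 bases before the start codon), for Mgea5, the enzyme that removes O-GlcNAc from proteins (chr19:45857725-45857754, minus strand, exon 1, 104 bases before it), and for Abr, a GTPase-activating protein (chr11:76308175-76308204, minus strand, exon 1, 281 bases before it), on mm9 and with the G runs and the bases between them in capitals.
Gnas G-run pattern: tGGGCGATCCCGGGCCAGGGGCACCGGGcg
Mgea5 G-run pattern: gaaGGGGGAAGGGCGGAGGGGGAGGGGaag
Abr G-run pattern: tcaGGGTGGGGACGCGCGGGAGGCGGGccc

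In these carriers, WT translation efficiency (TE), the log2 ratio of the footprinting to the RNA-Seq mean, was -0.49 for Gnas, -0.67 for Srrm2, -0.89 for Sez6, -0.05 for Dlg3, -0.46 for Zswim6, -0.05 for Mgea5 and -0.58 for Abr. Their TE differences, LRRK2 KO minus WT, lay between -0.05 for Mgea5 and 0.11 for Abr. Members with a CGG repeat had a median control TE of -0.52, -0.40 and -1.11, and members without it -0.57, -0.32 and -1.09. With the G-run pattern the medians were -0.64, -0.33 and -1.29, and without it -0.57, -0.32 and -1.05. Members whose annotated 5′UTR refolds below -400 kcal/mol had -0.64, -0.35 and -1.30. The motifs thus separated the members by less than 0.25 in each table, and no test was made. For the refolded energy no median of the other members is given, so its separation is not stated.

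Values on both sides of -400 kcal/mol are given for the nearest transcripts. Inside are 2410002I01Rik (-400.48), Slc41a1 (-401.2), a magnesium transporter, Phospho2 (-401.31), Snrpn (-401.42), a spliceosome protein of an imprinted locus, and Tmcc1 (-402.26). Their TE differences in GS LRRK2 TG were -0.51, -0.02, 0.59, -0.05 and 0.31. Just outside are Dnmt1 (-399.6), the maintenance DNA methyltransferase, Rasal2 (-399.51), Syn2 (-399.48), a synaptic vesicle protein, and Dgke (-399.08), with -0.20, 0.18, 0.02 and -0.09. In GS/DA LRRK2 TG the values were -0.13, 0.06, -0.43, 0.01 and 0.05 inside and -0.05, -0.36, 0.01 and -0.15 outside. In LRRK2 KO the first 4 inside had 0.21, 0.30, -0.18 and -0.16 and Adam19, a metalloprotease next in that table, -0.16. Outside, Dnmt1, Rasal2, Syn2 and Dgke had 0.04, 0.37, 0.40 and 0.28, and Dtx4, listed in that table at -399.1 kcal/mol, had -0.29. These values were not tested.

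Control TE was lower in the members than over all transcripts in each table. Its median was -0.57, -0.32 and -1.09 over the members and -0.17, 0.04 and -0.64 over all transcripts. Against the other transcripts of the same of 20 bins of expression, the median departure of the members was -0.40, -0.36 and -0.45, and 288 of 412 members (69.9%), 296 of 412 (71.8%) and 361 of 460 (78.5%) were below. These bins use read means that are not divided by CDS length. They thus match neither CDS length nor CDS base composition, and departures in bins of those are not given. With all 4 means at least 500 the departure was -0.16, -0.25 and -0.34, and the median itself -0.29, -0.17 and -0.60, so the distance was smaller among members with more reads, most of all in the GS LRRK2 TG table. No test was made of these medians, because genes are not replicates. Single libraries can be set beside them: over the 4 pairings of a footprinting with an RNA-Seq library, the WT median was -1.39, -1.15, -1.04 and -0.84 for the members and between -0.70 and -0.62 for all transcripts. In the non-TG libraries behind the GS/DA LRRK2 TG comparison it was -0.51, -0.36, -0.15 and -0.10 against 0.05 to 0.11. The members were thus lower than all transcripts in each of these 8 pairings, although the distance depended on the RNA-Seq library taken.

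The levels behind these ratios depend on whether length is counted. The median control RNA-Seq mean of the members was 819, 878 and 366, above the 690.0, 745 and 288 of all transcripts, and the median control footprinting mean was 495, 616 and 152, below the 564, 715 and 166 of all transcripts. Per kb of CDS, which allows a comparison between genes, the members had less of each: 346, 368 and 155 RNA-Seq reads per kb against 463, 496 and 192, and 222, 274 and 65.3 footprints per kb against 385, 484 and 113. Control TE spread widely among the members, with an SD of 0.91, 0.89 and 0.80. A control TE of -2 or less was found in 24 members (5.83%), 16 (3.88%) and 73 (15.9%), against 2.94%, 2.11% and 5.83% of all transcripts.

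Among the members, the energy itself did not order control TE. Members between -500 and -400 kcal/mol had medians of -0.52, -0.29 and -1.14, those between -700 and -500 had -0.59, -0.32 and -1.07, and those below -700 had -0.61, -0.36 and -1.08. The rank correlation of energy with control TE was -0.00, -0.01 and -0.03 across members (412, 412 and 460 genes), a description within a range that the rule narrows, and genes are not independent replicates. By upstream ATGs, as a description, the 83 members with 0 of them in the transgenic tables had medians of -0.44 and -0.12, and the 75 with 5 to 9 had -0.84 and -0.57. In the LRRK2 KO table the 92 members with 0 had -0.82 and the 85 with 5 to 9 had -1.35. Members with other numbers of upstream ATGs, and all transcripts by that number, are not given, so no order by upstream ATGs is stated. By the base composition of the CDS the medians were -0.12, -0.04 and -0.81 below 50% GC and -0.79, -0.42 and -1.27 at 55% GC or more.

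The members with the lowest energies were mostly low in control TE, with exceptions. Fam69b, with the lowest of all, had -1.52, -1.23 and -1.57. Mbtps1, the site-1 protease that cleaves SREBP in the Golgi, had -1398.02 kcal/mol and the lowest control TE of this group, -2.78, -2.55 and -3.42. Its normalized footprints were 99.7 and 56.0 in the WT libraries and 121 and 56.0 in the LRRK2 KO libraries, against RNA-Seq values of 994 and 675 and of 794 and 1345, so every footprint value was far below every RNA-Seq value. Dlgap4, a postsynaptic scaffold, had -1341.85 kcal/mol and a control TE of -0.79, -0.34 and -1.28. Ubr2, an N-end rule ubiquitin ligase, is an exception in all 3 tables, with -1296.68 kcal/mol and a control TE of 0.01, 0.05 and -0.02. Its WT libraries held 381 and 741 footprints and 624 and 509 RNA-Seq reads, and its annotated 5′UTR refolds to -154.4 kcal/mol. The splicing regulators Rbm10 (-1251.9 kcal/mol) and Srsf8 (-1234.6) had -1.35, -1.16 and -1.37 and -1.36, -1.25 and -1.79. Chpf2, a chondroitin synthesis enzyme, had -1.14, -0.77 and -1.41, and Cttnbp2nl had 0.19, 0.47 and -0.95. Of these and Lonp1, Plxna3 and Rbm5, which complete the group, only Plxna3 and Chpf2 refold below -400 kcal/mol.

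At the top of control TE in the GS/DA LRRK2 TG table, among members with all 4 means at least 500, were 2 Gapdh transcripts with 3.53 and 2.00. These are near-identical copies whose reads cannot be placed with certainty, so their values are not read further. Next came Ccrn4l, a circadian deadenylase-like protein, with 2082 and 1869 footprints and 308 and 967 RNA-Seq reads in the control libraries (control TE 1.63), Trim23 (1.52), and Ubl5, a ubiquitin-like splicing factor (1.48). The lowest were Bzrap1, a presynaptic scaffold, with 792 and 922 footprints and 3163 and 5155 RNA-Seq reads (-2.28), Taok2, a kinase of neuronal development, with 1077 and 1226 and 4844 and 4828 (-2.07), Psd, an exchange factor for Arf6, with 2455 and 2759 footprints, B230208H17Rik, with 1179 and 1241 footprints and 4897 and 4801 RNA-Seq reads, and Grik5, a kainate receptor subunit (-1.84). Library values of Bzrap1 and Taok2 leave no overlap between footprints and RNA-Seq, while those of Ccrn4l differ by a factor of about 3 between RNA-Seq libraries.

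In the LRRK2 KO table, again among members with all 4 means at least 500, the highest control TE was that of Gprasp1, which sorts G protein-coupled receptors to lysosomes, with 1829 and 4082 footprints and 1790 and 2254 RNA-Seq reads in the WT libraries (0.55). The ubiquitin ligase Herc3 (0.23), Ubr2 (-0.02), the kinase Gsk3b (-0.03) and the coronin Coro7 (-0.03) followed. The lowest were Psd, with 720 and 482 footprints and 4721 and 2949 RNA-Seq reads (-2.67), the adhesion receptor Lphn1 (-2.21), Sipa1l1, a synaptic Rap GTPase-activating protein (-2.09), Snrpn, with 1227 and 1014 footprints and 5017 and 4452 RNA-Seq reads (-2.08), and the ubiquitin ligase Trim37 (-2.02). Psd is thus at the low end of both tables. After Gapdh, the highest RNA level per kb of CDS was that of Snrpn, 19535 in non-TG mice (GS/DA LRRK2 TG table) and 6548 in WT. Ptpn5, a striatum-enriched phosphatase, followed with 6425 in the former, and Ubl5 with 2724 in the latter. Not per kb, Ttc3, a ubiquitin ligase of the Down syndrome region, had an RNA-Seq mean of 15051 in the former and Gnas of 7760.1 in WT.

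In GS LRRK2 TG, the members as a group stayed near all transcripts. The median TE difference, GS LRRK2 TG minus control, was 0.01 over the members and 0.02 over all transcripts, with a departure of -0.02 from transcripts of like expression. Of the 412 members, 70 (17.0%) had a TE difference of at least 0.25, where 17% of all transcripts did, and 30 (7.28%) had -0.25 or less, where 5.24% did. The median footprint change was -0.03 and the median RNA-Seq change -0.03, against 0.00 and -0.02 over all transcripts. No test per gene was possible without control libraries. Leaving out a GS LRRK2 TG RNA-Seq library gave a median TE difference of -0.20 or 0.23, so the direction of this median depended on which library was kept. The RNA-Seq libraries differed in composition, with a median log2 ratio between them of 2.01 for members below 50% GC in the CDS and -1.45 for those at 55% or more, and the TE differences of these classes were 0.20 and -0.09. The choroid plexus marker Ttr, the only listed gene of 3, had 723 footprints in GS LRRK2 TG and 3944 in control. The 3 of 5 cortical neuron markers listed, led by Slc17a7, summed to 1366 and 1612 footprints and to 1071 and 1851 RNA-Seq reads. The part of composition, choroid plexus and cortical neurons in the result was not tested.

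The highest TE differences in GS LRRK2 TG, among members with all means at least 500, were those of Slmap, Zrsr1, Senp6, Trim37 and Ptn. Slmap, a membrane protein of the STRIPAK complex, had 1601 and 1679 footprints in the GS LRRK2 TG libraries beside a control mean of 1643, and RNA-Seq values of 1555 and 272 beside 1405 (TE difference 0.62). Zrsr1, a U2AF-related splicing factor, had RNA-Seq values of 1037 and 423 beside a control mean of 1016 (0.53). Senp6, a SUMO protease, had 1160 and 162 beside 927 (0.52). Trim37 had 5595 and 1161 beside 5011 (0.49), and Ptn, a heparin-binding growth factor, 2499 and 858 beside 1973 (0.46). In each of the 5, RNA-Seq library 1 was above the control mean and library 2 below it. At the other end stood Gigyf2, a translational repressor that binds 4EHP, with RNA-Seq values of 4175 and 304 beside a control mean of 1836 (-0.45). Lonp1 had 783 and 709 footprints beside a control mean of 954, and an RNA-Seq mean of 2249 beside 2257 (-0.35). C230096C10Rik (-0.28), Cyc1, the cytochrome c1 of complex III (-0.26), and Cyhr1 (-0.23) completed the lowest 5. In all 5 of these, both footprint values were below the control mean.

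In GS/DA LRRK2 TG, the median TE difference was -0.07 over the members and -0.05 over all transcripts, with a departure of -0.02. At least 0.25 was reached by 5 members (1.21%), where 1.48% of all transcripts did so, and -0.25 or less by 60 (14.6%), where 13.2% did. The median footprint change was 0.01 and the median RNA-Seq change 0.09, against -0.01 and 0.06. Fitted over all 8311 transcripts with limma, the interaction of genotype and assay passed an adjusted p under 0.05 for 0 of 400 members, where 0% of all transcripts passed. An unadjusted p under 0.05 was reached by 0 members and by 0% of all transcripts. With the library pairs as a block, the unadjusted count was 2 members of 33 transcripts, and 0 passed adjustment. The median standard error of the interaction was 0.818 over the members, so TE differences of the size seen here were not detectable at this spread. Within library pairs of like composition, 117 of 403 members (29.0%) had a higher RNA-Seq value in both pairs and 48 (11.9%) a lower one, against 21.7% and 16.0% of all transcripts. Leaving out a library gave a median TE difference between -0.27 and 0.16, and the direction of the median RNA-Seq change also depended on the library. The 3 of 5 cortical neuron markers listed, led by Slc17a7 with 2047 footprints in GS/DA LRRK2 TG and 833 in control, summed to 3339 and 1343 footprints, and the striatal list to 108498 and 135645. Ttr had 3149 footprints in GS/DA LRRK2 TG and 9125 in control, and RNA-Seq means of 4303 and 7897. Their part in the result was not tested.

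The genes named next have the lowest TE differences in GS/DA LRRK2 TG among members with all 4 means at least 500, and their RNA-Seq libraries were far apart. Smarca5, the ATPase of ISWI chromatin remodelers, had 2715 and 2268 footprints in the control libraries and 2632 and 2125 in GS/DA LRRK2 TG. Its RNA-Seq values were 1636 and 259 in control and 2605 and 175 in GS/DA LRRK2 TG (TE difference -0.62, limma interaction -0.13 with a standard error of 1.95). Trim23, a ubiquitin ligase with an Arf domain, had RNA-Seq values of 1510 and 209 against 2297 and 117 (-0.53), and Dzip3, an RNA-binding ubiquitin ligase, 1179 and 75.5 against 1698 and 69.4 (-0.45). Smek1, a regulatory subunit of protein phosphatase 4, had -0.55. The RNA-Seq groups of these genes overlap, and only the library with the higher value differs in the direction of the mean. The highest TE differences were those of Gigyf2, with RNA-Seq values of 4759 and 485 in control and 4080 and 501 in GS/DA LRRK2 TG (0.33), a Gapdh transcript, Ubr2 (0.15), the phospholipase Ddhd1 (0.13) and Robo2 (0.12). For Ubr2 both footprint values, 1501 and 1319, were above both control values, 1289 and 1032, and the share of all transcripts with such a separation is not given.

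In LRRK2 KO, the pooled means of the members departed from transcripts of like expression by more than in the other comparisons, an order that was not tested and does not hold with every library left out. The median TE difference was -0.07 over the members and 0.02 over all transcripts, with a departure of -0.10 from transcripts of like expression, and 289 of 460 members (62.8%) were below those. At least 0.25 was reached by 40 members (8.70%), where 18.1% of all transcripts did so, and -0.25 or less by 95 (20.7%), where 15% did. With all 4 means at least 500, of 74 members 8 were higher (10.8%) and 5 lower (6.76%), against 19.2% and 5.17% of 1684 transcripts, so higher outnumbered lower in both, and the departure was -0.10. In the pooled means this came with RNA-Seq rather than footprints. The median footprint change was 0.02 in both, and the median RNA-Seq change was 0.10 over the members and 0.01 over all transcripts. With a library left out, the direction of that RNA-Seq change depended on the library. Within both library pairs of like composition, RNA-Seq was higher for 170 of 458 members (37.1%) and lower for 66 (14.4%), against 24.6% and 23.6% of all transcripts. The pairs differed in size, with a median RNA-Seq change of 0.05 in pair 1 and 0.15 in pair 2, where all transcripts had 0.00 in each. None of this passed a test per gene: limma called 0 of 458 members at an adjusted p under 0.05, where 0% of 9521 transcripts passed. At an unadjusted p under 0.05 it called 0 members and 4 of all transcripts (0.042%), with a median standard error of 0.483. With the library pairs as a block, the unadjusted count was 9 members of 183 transcripts, and 0 passed adjustment.

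Which libraries were paired mattered for this median. With footprint pair 1 and RNA-Seq pair 1 it was -0.01, with footprint pair 2 and RNA-Seq pair 1 -0.01, with footprint pair 1 and RNA-Seq pair 2 -0.16 and with footprint pair 2 and RNA-Seq pair 2 -0.10, while all transcripts had 0.04, -0.02, 0.04 and -0.02. Leaving out single libraries gave medians between -0.26 and 0.03. By base composition, the TE difference of the members was 0.03 below 50% GC in the CDS, -0.06 from 50 to 55% and -0.14 at 55% or more, against 0.11, 0.03 and -0.07 in other transcripts, so the members were lower in each class. The RNA-Seq change was 0.08, 0.10 and 0.12 in the members and -0.03, -0.00 and 0.04 in the others. Blood markers, 3 of 4 listed and led by Hba-a2, summed to 2126 footprints in LRRK2 KO and 3370 in WT, and the 5 of 5 microglia markers, led by Csf1r, to 406 and 353. RNA-Seq means summed to 6465 and 7566 for blood, to 849 and 675 for microglia and to 3072 and 3678 for the 5 of 5 cortical neuron markers, led by Slc17a7, and Ttr had 104 and 212. Their part in the result was not tested.

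Among members with all 4 means at least 500 and apart from Gapdh copies, the highest TE differences in LRRK2 KO were those of Disp2 and Cnr1. Disp2, a dispatched-like membrane protein, had 1068 and 452 footprints in WT and 1049 and 421 in LRRK2 KO, and RNA-Seq values of 371 and 1295 against 364 and 813 (TE difference 0.45). Cnr1, the cannabinoid receptor of spiny neurons, had 1007 and 648 footprints in WT and 1389 and 747 in LRRK2 KO, while its RNA-Seq values were 929 and 1357 against 1204 and 1104 (0.35, limma 0.29 with a standard error of 0.54). The footprint groups of Cnr1 overlap, since the lower LRRK2 KO value is below the higher WT value. The lowest TE differences were those of Bai1, an adhesion receptor, with 881 and 332 footprints against 752 and 306 and RNA-Seq values of 2357 and 2512 against 2263 and 3620 (-0.47). Ptprn, a phosphatase-like protein of secretory granules, had 2670 and 584 footprints against 2362 and 534 and RNA-Seq values of 1954 and 4384 against 2093 and 5208 (-0.37). Spnb4, the beta-4 spectrin of axon initial segments, had 623 and 581 against 472 and 715 and RNA-Seq values of 2003 and 1362 against 2415 and 1762 (-0.33). Cic, a transcriptional repressor, had RNA-Seq values of 2624 and 1768 against 2694 and 2389 (-0.28), and Rpl18, a ribosomal protein, -0.27. For Bai1 and Ptprn the footprinting libraries of a group differ by more than the genotypes do. Within library pairs of like composition, a match made from the data, both footprint values of each gene were lower in LRRK2 KO.

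By role, RNA-binding and splicing proteins gave 15 of 129 listed transcripts in the transgenic tables and 15 of 132 in the LRRK2 KO table. Here and below, higher and lower are counts of TE differences of at least 0.25 in size, a rule without a test, and the counts of the whole list follow those of its members. Over all transcripts, 17% were higher and 5.24% lower in GS LRRK2 TG, 1.48% and 13.2% in GS/DA LRRK2 TG, and 18.1% and 15% in LRRK2 KO. Their median control TE was -0.28, -0.05 and -1.13, and their median TE difference 0.27, -0.17 and -0.07, against 0.12, -0.08 and 0.04 over all transcripts of the list. By size, 9 of the 15 were higher and 0 lower in GS LRRK2 TG, 0 and 7 in GS/DA LRRK2 TG and 1 and 2 in LRRK2 KO. The whole list had 49 and 4, 1 and 33, and 24 and 9. Rbfox1, a neuronal splicing regulator, led in footprints in the transgenic tables, with 7217 and 9775 in non-TG libraries against 7088 and 9514 in GS/DA LRRK2 TG, and a control TE of 0.99, 1.19 and -0.36. Srrm2 had TE differences of 0.11, -0.17 and 0.03. Sf3b1, the branch point subunit of the U2 snRNP, had 0.27, -0.34 and -0.09, with RNA-Seq values of 4336 and 1371 in control and 5937 and 1057 in GS/DA LRRK2 TG. Celf5, an RNA-binding protein of neurons, had 0.06, -0.03 and -0.06.

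Chromatin regulators gave 14 members of 114 in the transgenic tables and 15 of 119 in the LRRK2 KO table. Their median TE difference was 0.19, -0.20 and 0.01 against 0.09, -0.10 and -0.08 over the whole list, with 5 higher and 0 lower, 0 and 5, and 0 and 2 among members (whole list 32 and 7, 1 and 26, and 3 and 18). Sin3b, a scaffold of histone deacetylase complexes, had the most footprints (control TE -0.15, 0.10 and -0.27). Auts2, a neurodevelopmental regulator of Polycomb complexes, had -0.54, -0.24 and -1.77, and Brd2, a reader of acetylated histones, -1.77, -1.46 and -1.79. The annotated 5′UTR of Brd2 refolds to -1552.8 kcal/mol where -910.63 is deposited, and that of Sin3b to -2.3 where -1050.75 is deposited.

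Zinc finger proteins, 11 members of 213 and 13 of 295, had a median control TE of -0.55, -0.35 and -1.14 and a median TE difference of 0.14, -0.23 and -0.16. The whole list had 0.13, -0.13 and -0.02. By size, 4 members were higher and 0 lower, 0 and 4, and 1 and 5, beside 77 and 12, 7 and 59, and 50 and 56 of the whole list, so in GS LRRK2 TG the members have the share of the list. Zfp503, a repressor of striatal development, had TE differences of -0.13, -0.23 and 0.22, Zfp467 had -0.01, -0.15 and -0.23, and Zfp91, an atypical ubiquitin ligase, 0.20, -0.35 and -0.29.

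Ubiquitin and SUMO enzymes were the longest role, with 20 members of 232 and 21 of 249. Their median control TE was -0.67, -0.53 and -1.15, below the -0.26, -0.04 and -0.67 of the whole list, and 6 were higher and 1 lower, 0 and 7, and 3 and 6 (whole list 50 and 9, 1 and 47, and 42 and 44). Usp11, a deubiquitinase, had the most footprints, with 1317 and 1619 in WT and 1399 and 1585 in LRRK2 KO, and TE differences of -0.20, 0.01 and 0.10. Trim23 had 0.10, -0.53 and 0.38, Trim37 0.49, -0.35 and -0.15, and Herc3 -0.05, -0.09 and 0.22. Within this role no direction was shared by its leading genes.

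Kinases gave 15 members of 211 and 17 of 227 and the lowest control TE of the larger roles, -0.84, -0.68 and -1.63 against -0.37, -0.17 and -0.87. Of these, 8 were higher and 0 lower in GS LRRK2 TG, 0 and 3 in GS/DA LRRK2 TG and 1 and 4 in LRRK2 KO, where the whole list had 36 and 9, 3 and 30, and 30 and 36. Roles share members: Clk1 (0.56 in GS LRRK2 TG and -0.58 in GS/DA LRRK2 TG) and Clk4 (0.68 and -0.68) are counted here and among the splicing proteins. Gsk3b, a kinase of Wnt and insulin signalling, had a control TE of 1.18, 1.33 and -0.03, with 1089 and 1661 footprints in WT and 1370 and 1428 in LRRK2 KO. Tnik, a synaptic kinase of Wnt signalling, had TE differences of 0.29, -0.21 and -0.01, and Wnk1, a regulator of chloride cotransporters, 0.39, -0.24 and 0.08. Pik3r4, the regulatory subunit of the class III PI3-kinase, had 378 and 421 footprints in WT and 521 and 485 in LRRK2 KO, and RNA-Seq values of 329 and 508 against 438 and 797 (TE difference -0.23). Its footprint groups do not overlap and its RNA-Seq groups do, a description at 2 libraries per group. The share of all transcripts without such overlap is not given.

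Phosphatases (5 of 103 and 6 of 110) and GTPase regulators (5 of 83 and 5 of 93) were few. Among phosphatases 2 were higher and 0 lower, 0 and 1, and 0 and 1 (whole list 21 and 2, 2 and 13, and 18 and 11), and their median control TE was -0.57, -0.12 and -1.13. Ptpn5 had 2066 and 1283 footprints in WT and 1811 and 1353 in LRRK2 KO, with TE differences of -0.15, -0.01 and -0.23. Ptprg, a receptor phosphatase, had 0.27, -0.19 and 0.16. Among GTPase regulators 2 were higher and 0 lower, 0 and 1, and 0 and 0 (whole list 13 and 2, 3 and 8, and 7 and 18). Sipa1l1 had 0.21, -0.02 and -0.20, and Prex2, a Rac exchange factor, 0.71, -0.47 and 0.10 at 312 control RNA-Seq reads in the GS LRRK2 TG table.

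Ion channels gave 10 members of 100 and 11 of 113, with a median control TE of -0.67, -0.35 and -1.33 against -0.16, 0.03 and -0.82 over the whole list. Their median TE difference was 0.01, -0.13 and -0.17, with 1 higher and 0 lower, 0 and 2, and 0 and 3 (whole list 7 and 9, 1 and 16, and 30 and 21). Kcnt1, a sodium-activated potassium channel, had TE differences of -0.16, -0.09 and -0.22. Cacnb3, a beta subunit of voltage-gated calcium channels, had -0.00, -0.13 and -0.17, with 390 and 265 footprints in WT and 374 and 302 in LRRK2 KO. The potassium channels Kcna1 and Kcna4 had 0.14, -0.38 and 0.17 and -0.04, -0.13 and 0.13. Kcna1 is one of the few members of this role whose annotated 5′UTR refolds near its deposited energy, -942.0 against -963.15 kcal/mol.

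The symbols of G protein-coupled receptors gave 6 members of 50 and 6 of 63, of which Gprasp1 and the mitochondrial protease Htra2 are caught by their first letters and are not receptors. By size 3 were higher and 0 lower, 0 and 1, and 2 and 1 (whole list 10 and 1, 1 and 5, and 20 and 5). Without Gprasp1 and Htra2 the counts of members are 2 and 0, 0 and 1, and 1 and 0. Cnr1 had a control TE of 1.38, 1.36 and -0.47. Beside the non-TG mice, its footprints were 3623 and 4112 in control and 2331 and 3527 in GS/DA LRRK2 TG, with RNA-Seq values of 2047 and 960 against 1634 and 580, so both assays had lower values and the TE difference was 0.04. Its footprint groups do not overlap there, and the share of all transcripts for which this holds is not given. Adora1, the inhibitory adenosine receptor, was low in control TE, -1.62, -1.26 and -2.10, and Oprk1, the kappa opioid receptor, was 1.37, 1.55 and -0.40.

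Of mRNAs used as textbook cases of a structured 5′UTR, 2 of 11 listed are members in the transgenic tables and 3 of 12 in the LRRK2 KO table: Mdm2, the ubiquitin ligase of p53, Vegfa, the vascular growth factor, and, in the LRRK2 KO table, Bcl2, which blocks apoptosis. Mdm2 had TE differences of 0.30, -0.06 and -0.47, and Vegfa -0.08, -0.00 and 0.07. Bcl2 had -0.01 at 39.6 WT footprints. Factors that unwind 5′UTRs and eIF4F subunits hold 0 members of 12 and had a median TE difference of 0.09, -0.10 and 0.09. This list also takes in Pdcd4 and Eif4g2, which are neither. Slc1a3 had a control TE of 1.11, 1.29 and -0.77, and TE differences of 0.31, -0.06 and 0.31. The summed footprints of the 5 astrocyte markers, led by Slc1a3, were 7548 and 7170 in GS LRRK2 TG and control, 9704 and 9044 in GS/DA LRRK2 TG and control, and 1574 and 1650 in LRRK2 KO and WT. The part of astrocytes in the values of the members was not tested.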

How the data were processed

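The deposited group means are a signal that the authors made by counting reads in the CDS and normalizing with DESeq 1.20; the submitters' processing notes name TopHat2 2.0.11, Bowtie2 2.2.2, CASAVA 1.8 and mm9. The folding energy is a score that the authors took from a UCSC table of mm9 and deposited per gene. The deposited log2 TE, TE difference and z-score columns hold the authors' own findings and were not used. The 3 tables were normalized separately, so comparisons stay within a table. Members and lists were chosen with earlier results of these data known.

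TE used a pseudocount of 0. Expression bins were 20 of equal size on the mean of the 4 log2 means. Each library's reads were worked out from the means by a method tested on simulated data. limma 3.58.1 fitted genotype, assay and their interaction on log2 of normalized reads plus 10, with Benjamini-Hochberg adjustment over all transcripts. ViennaRNA 2.7.2 refolded 5′UTRs of up to 5000 bases. Named genes are Lrrk2, the 10 lowest energies, 5 on each side of the limit, the 5 highest and lowest TE differences and control TE with all 4 means at least 500, the 5 most abundant members, and up to 4 members with the most footprints per list; not every gene this rule names is printed. Ventral midbrain libraries were not used here.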

Additional observations from a re-analysis of the deposited data

How the results depend on the processing

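Of 364 alternative values, 319 stayed within the spread and 45 moved beyond it, and for those the cause was not tested. The spread is 1 SD over the values with 1 library left out, or, for control TE, over the 4 single-library pairings. It replaced a narrower one, the SD over library pairs, after its labels were seen, and the narrower one marked more values as moved. For the replicate numbers of the labels: No paired analysis was possible because the recovered libraries carry none of them. By the mapped reads that the paper lists, a GS/DA LRRK2 TG footprinting library (15954039 reads) is too deep for replicate 1. So is a non-TG footprinting library behind that comparison (13703832 reads), which leaves the number of the other non-TG library open. For the RNA-Seq libraries the mapped reads settle no number. The pairs and block fits given match libraries by like composition only, a choice made from the data. Low control TE of the members kept its sign throughout. With all 4 means at least 500, median control TE was -0.29 in the GS LRRK2 TG table (departure -0.16) and -0.60 in the LRRK2 KO table, and with 250 it was -0.70 there. Leaving out 1 library gave these ranges. For GS LRRK2 TG, TE difference -0.20 to 0.23 (departure -0.26 to 0.21). For GS/DA LRRK2 TG, TE difference -0.27 to 0.16 (departure -0.21 to 0.14) and RNA-Seq change -0.15 to 0.26. For LRRK2 KO, TE difference -0.26 to 0.0348 (departure -0.26 to 0.0397), footprint change -0.0116 to 0.0446 (departure -0.0414 to 0.0437) and RNA-Seq change -0.0436 to 0.28 (departure -0.0486 to 0.25). In LRRK2 KO the TE departure was -0.20 with footprint pair 1 and RNA-Seq pair 2 and 0.0145 with footprint pair 2 and RNA-Seq pair 1, and the footprint departure -0.0377 in pair 1 and 0.0469 in pair 2. Members by size, higher and lower, were 14 and 1 (GS), 0 and 12 (GS/DA) and 8 and 13 (KO, of 460; 412 in the others) at a size of 0.5, where all transcripts had 3.32% and 0.257%, 0.0700% and 2.31%, and 4.06% and 2.75%. With all means at least 500 they were 26 and 4 of 181, 1 and 26 of 223, and 8 and 5 of 74, where all transcripts had 12.8% and 2.78%, 0.494% and 10.4%, and 19.2% and 5.17%. limma fits with a library left out (8 per table) were made for GS/DA LRRK2 TG and LRRK2 KO only, a choice made after the data were seen. They assume that the lone library varies like the other groups, so their counts are not read. Depth limits low counts most in the LRRK2 KO table.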

Other observations

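Foxj1, a ciliary transcription factor, is a member in the transgenic tables only, and the members listed in the LRRK2 KO table only include Zmat1, Slit2, an axon guidance cue, and Car10, all low in footprints. The labels also name 1 ventral midbrain footprinting library each of WT and LRRK2 KO mice, which enter no comparison here.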
